A study of Mus musculus with 12 samples.

Results

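The 33466 H3K4me3 peaks called in crypts and villi of the mouse small intestine were compared, out of 169081 peaks of 10 chromatin immunoprecipitation (ChIP-seq) lists in the series. All peaks of both lists were members, 16489 from the crypts library and 16977 from the villi library. Crypts were released from the tissue with EDTA and villi were scraped off, so both are mixed preparations of the cells of each compartment, and strain, genotype, age and number of animals are not given in the sources used here. The chromatin of both carried added Drosophila chromatin as a spike-in, which does not enter the peak calls. The study asked how histone marks are distributed in villi, where the tail of histone H3 is clipped by proteases, against crypts. With 1 library per compartment no difference has a replicate check, no test was made, and intervals cover counting error only. Depth is unknown, since the lists hold no read counts, and a called width depends on depth and on enrichment. A mark carried by fewer cells and less of it per cell cannot be told apart in these bulk preparations.

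H3K4me3, trimethylation of lysine 4 on histone H3, is deposited by SET1 and MLL methyltransferases around active transcription start sites, above all at promoters rich in CpG dinucleotides. Its peaks are usually centred just downstream of the start site, and broad ones are known at highly transcribed genes and genes of cell identity. In the intestine, stem cells at the crypt base divide and give rise to transit-amplifying cells, and their progeny differentiate into absorptive enterocytes that move up the villus, while Paneth cells stay at the base.

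The promoters of 8 genes show the range of sequences at which the peaks differed. They are given 5′ to 3′ on the strand of the gene, 250 bases before to 50 after the start site, from RefSeq (GRCm38.p6), with CpG dinucleotides in capitals. Olfm4 (chr14:80000052-80000351, plus strand), a secreted glycoprotein of stem cells, and Kcnn4 (chr7:24370013-24370312, plus strand), a calcium-activated potassium channel, had a promoter peak in crypts only. Rrm2 (chr12:24708004-24708303, plus strand), a subunit of ribonucleotide reductase, and Mki67 (chr7:135716330-135716629, minus strand), the proliferation marker Ki-67, had peaks in both that were narrower in villi. Nt5e (chr9:88327359-88327658, plus strand), the ecto-5′-nucleotidase CD73, Tmigd1 (chr11:76901909-76902208, plus strand), an epithelial adhesion protein, and Fabp6 (chr11:43601513-43601812, minus strand), the ileal bile acid binding protein, had wider peaks in villi. Cd3e (chr9:45009562-45009861, minus strand), a chain of the T cell receptor complex, had a peak in villi only.
Olfm4: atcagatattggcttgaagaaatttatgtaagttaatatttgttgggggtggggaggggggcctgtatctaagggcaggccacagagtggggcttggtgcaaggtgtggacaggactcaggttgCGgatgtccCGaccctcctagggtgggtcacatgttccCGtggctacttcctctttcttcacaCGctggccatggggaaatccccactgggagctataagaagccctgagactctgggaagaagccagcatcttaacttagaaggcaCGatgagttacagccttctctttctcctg
Kcnn4: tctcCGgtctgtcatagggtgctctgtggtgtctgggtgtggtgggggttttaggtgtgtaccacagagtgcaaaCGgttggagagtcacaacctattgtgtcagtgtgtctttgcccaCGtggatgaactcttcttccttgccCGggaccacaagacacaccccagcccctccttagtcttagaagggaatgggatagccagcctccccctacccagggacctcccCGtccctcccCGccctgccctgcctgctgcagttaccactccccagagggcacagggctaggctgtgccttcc
Rrm2: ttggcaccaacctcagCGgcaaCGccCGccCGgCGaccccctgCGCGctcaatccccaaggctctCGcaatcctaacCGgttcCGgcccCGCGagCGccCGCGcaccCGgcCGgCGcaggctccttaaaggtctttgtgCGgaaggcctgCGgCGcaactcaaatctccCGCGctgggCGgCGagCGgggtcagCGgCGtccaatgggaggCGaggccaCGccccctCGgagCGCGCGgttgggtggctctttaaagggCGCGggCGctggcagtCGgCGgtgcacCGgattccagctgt
Mki67: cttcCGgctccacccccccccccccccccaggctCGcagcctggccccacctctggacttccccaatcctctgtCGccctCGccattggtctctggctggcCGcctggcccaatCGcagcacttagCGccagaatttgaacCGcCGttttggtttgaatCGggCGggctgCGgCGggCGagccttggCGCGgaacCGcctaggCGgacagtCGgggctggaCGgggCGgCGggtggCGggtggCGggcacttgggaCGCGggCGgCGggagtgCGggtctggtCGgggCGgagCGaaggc
Nt5e: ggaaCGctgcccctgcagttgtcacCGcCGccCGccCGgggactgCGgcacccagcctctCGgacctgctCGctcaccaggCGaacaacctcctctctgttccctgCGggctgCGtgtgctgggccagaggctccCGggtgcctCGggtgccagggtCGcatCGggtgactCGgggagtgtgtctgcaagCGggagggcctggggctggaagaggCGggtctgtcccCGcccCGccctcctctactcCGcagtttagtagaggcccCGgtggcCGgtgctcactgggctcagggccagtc
Tmigd1: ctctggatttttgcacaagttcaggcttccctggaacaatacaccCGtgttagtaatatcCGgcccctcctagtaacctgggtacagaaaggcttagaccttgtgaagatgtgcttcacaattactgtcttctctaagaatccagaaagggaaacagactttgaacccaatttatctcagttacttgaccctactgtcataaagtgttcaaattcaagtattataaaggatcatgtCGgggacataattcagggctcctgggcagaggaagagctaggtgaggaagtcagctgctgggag
Fabp6: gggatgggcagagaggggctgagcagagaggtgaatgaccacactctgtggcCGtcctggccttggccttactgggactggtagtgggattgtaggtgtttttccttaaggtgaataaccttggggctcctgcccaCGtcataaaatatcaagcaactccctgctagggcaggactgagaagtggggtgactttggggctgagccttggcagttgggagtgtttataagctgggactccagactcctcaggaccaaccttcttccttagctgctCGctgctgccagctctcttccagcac
Cd3e: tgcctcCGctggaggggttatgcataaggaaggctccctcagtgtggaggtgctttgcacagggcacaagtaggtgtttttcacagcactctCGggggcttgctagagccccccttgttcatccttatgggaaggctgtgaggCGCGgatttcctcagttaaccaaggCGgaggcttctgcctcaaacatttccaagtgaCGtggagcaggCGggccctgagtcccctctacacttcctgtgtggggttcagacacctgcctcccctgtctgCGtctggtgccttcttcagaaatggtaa
The 300 bases hold 40 CpG sites at Rrm2, 32 at Mki67 and 23 at Nt5e, against 8 at Cd3e, 6 at Kcnn4, 5 at Olfm4 and 3 each at Tmigd1 and Fabp6. The window itself overlapped a peak of both lists at Rrm2, Mki67 and Nt5e, of the crypts list alone at Olfm4 and Kcnn4, and of the villi list alone at Cd3e, Tmigd1 and Fabp6. The motif TATAAA lies at -29 on the strand of the gene at Tmigd1 and on the other strand at Fabp6, counted from the start site.

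Peaks present in 1 compartment alone were few, narrow and weak. A peak was counted as shared when it overlapped a peak of the other list by at least 1 bp, which left 1101 crypts-only peaks (6.68%, 95% Wilson interval 6.31 to 7.07%) and 1591 villi-only peaks (9.37%, 8.94 to 9.82%). The median width of crypts-only peaks was 571 bp and that of villi-only peaks 613 bp, whereas shared peaks had 1658 and 1596 bp. The widest crypts-only peak, of 4388 bp, was the one at Olfm4, and the widest villi-only peak had 4903 bp. The score of a peak, taken as the authors' −log10 p-value, served to rank peaks within a list, and the rank is given as the percentage of the list that scored higher. The best rank of a crypts-only peak was 56.9% and that of a villi-only peak 62.5%. When each list was divided by score into 10 equal bins, 100% of peaks were shared in bins 1 to 5 of the crypts list and 1 to 6 of the villi list. In the lowest bin, 58.6% (56.2 to 61.0%) of crypts peaks and 44.7% (42.4 to 47.1%) of villi peaks were shared. Presence in 1 compartment alone therefore concerned only peaks of the lower ranks. A peak counts as shared with any overlapping call of the other list, however weak, so sharing does not show equal strength of the mark.

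**Figure D1:**
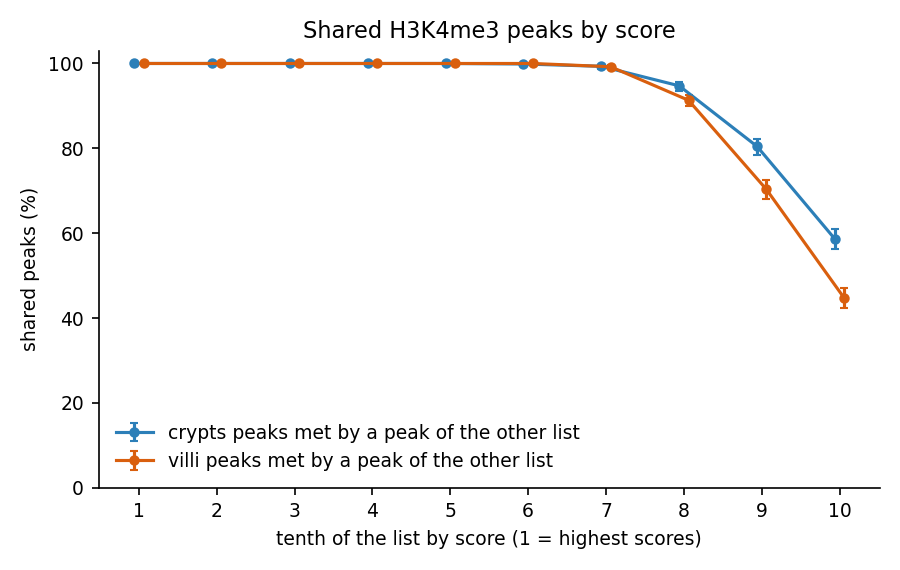
Percentage of H3K4me3 peaks overlapped by a peak of the other compartment, in 10 equal bins of each list from the highest scores (1) to the lowest (10), for crypts and villi, with 95% Wilson intervals as bars. Sharing is complete over the upper bins and drops to 58.6% in crypts and 44.7% in villi in the lowest bin.

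Unshared peaks lay at promoters less often than shared peaks of all ranks, and the gap was smaller at equal rank. A promoter peak was a peak within 1 kb of the start site of a protein-coding transcript in the GENCODE M21 annotation of GRCm38. Of the crypts-only peaks 294 (26.7%, 24.2 to 29.4%) and of the villi-only peaks 358 (22.5%, 20.5 to 24.6%) were promoter peaks, against 76.8% and 77.1% of shared peaks, which hold all the high ranks. Within score bin 9, where ranks are alike, 33.4% (28.5 to 38.7%) of crypts-only and 34.6% (32.1 to 37.2%) of shared crypts peaks were promoter peaks. In the villi list the shares in that bin were 22.9% (19.5 to 26.8%) and 37.0% (34.3 to 39.8%). Bin 8 had 42.5% against 46.2% in crypts and 21.3% (15.5 to 28.6%) against 43.2% in villi. In bin 10 they were 20.9% against 31.4% in crypts and 22.1% against 31.6% in villi. With the top 50% of each list alone, 88.7% of crypts-only and 83.0% of villi-only peaks were promoter peaks, since a peak whose counterpart scores lower then counts as unshared. Villi-only peaks lay inside coding genes in 38.5% (36.2 to 40.9%) and crypts-only peaks in 26.9% (24.3 to 29.6%). Outside coding genes and away from any start site lay 379 crypts-only peaks (34.4%) and 460 villi-only peaks (28.9%). Only 56 crypts-only and 98 villi-only peaks came within 1 kb of a peak of the other list, and the median gap was 19741 bp and 11882.5 bp. The median CpG observed over expected ratio, 1 where CpG is as frequent as its bases predict, was 0.605 and 0.611 in shared peaks, 0.415 in crypts-only and 0.288 in villi-only peaks. In bins 8, 9 and 10 it was 0.267, 0.291 and 0.288 in villi-only peaks against 0.505, 0.462 and 0.443 in shared villi peaks. For crypts-only peaks it was 0.426, 0.428 and 0.412 against 0.522, 0.445 and 0.381. Villi-only peaks were thus poorer in CpG than shared peaks in each of these bins, and crypts-only peaks in bins 8 and 9 but not in bin 10.

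Other marks were called over many of the unshared peaks, as over shared ones. H3K4me1, a mark of enhancers and promoter flanks, had a peak in the same compartment over 88.2% of crypts-only and 88.2% of villi-only peaks, and in the opposite compartment over 81.9% and 84.4%. Over shared peaks these shares were 91.7% and 88.1% in the same compartment and 88.4% and 91.5% in the opposite one. Away from promoters the share in the same compartment was 92.8% (91.2 to 94.1%) for villi-only and 86.3% (85.1 to 87.4%) for shared villi peaks, and 91.2% (89.0 to 93.0%) and 89.8% (88.8 to 90.8%) in crypts. At promoters it was 72.6% against 88.7% in villi and 79.9% against 92.3% in crypts. H3K27me3, the mark of Polycomb repression, overlapped 104 of the 294 crypts-only promoter peaks in crypts (35.4%, 30.1 to 41.0%) and 121 in villi (41.2%). At the 358 villi-only promoter peaks it was found at 159 in villi (44.4%, 39.4 to 49.6%) and at 139 in crypts (38.8%). Shared promoter peaks of all ranks overlapped it in 9.99% in crypts and 11.4% in villi. Within score bins the order was mostly the opposite. In bin 10 H3K27me3 lay over 42.3% (34.4 to 50.5%) of crypts-only and 53.3% (47.7 to 58.9%) of shared promoter peaks in crypts, and over 46.1% (39.4 to 52.9%) and 54.2% (47.9 to 60.4%) in villi. Bin 9 had 35.2% against 51.5% in crypts and 41.2% against 51.8% in villi. In bin 8 the shares were 16.2% (6 of 37) against 43.7% in crypts and 16 of 32 against 46.6% in villi, the only bin of these in which the unshared peaks had the higher share. H3K9me3, a mark of heterochromatin, overlapped 12 of the 358 villi-only promoter peaks in villi (3.35%, 1.93 to 5.77%) and 12 in crypts, 1 of the 294 crypts-only ones in crypts and 5 of 11867 shared villi promoter peaks (0.0421%). Whether reads map uniquely at these 12 villi-only promoter peaks was not examined.

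Of 21866 protein-coding genes, 232 had a promoter peak in crypts only, 1.8% of the 12890 genes with a promoter peak in either compartment. In villi only there were 277 such genes (2.15%), and 8976 (41.1% of coding genes) had none. Within 5 kb of a start site no villi peak lay at 202 of the 232 genes and no crypts peak at 243 of the 277. At 220 of the 232 and 270 of the 277 genes the peak met no peak of the other list at all. Ranked by score among these 220, the crypts-only promoters began with Dmbt1, a secreted scavenger receptor of mucosal surfaces, whose 3995 bp peak (chr7:131031915-131035909) had a score of 126. The next were a peak of 2096 bp that lies at both Gm45717 and Ifitm2, an interferon-induced membrane protein (score 96.5), and Kcnn4 with 3198 bp (chr7:24369972-24373169, score 87.6). Gm17783 (1760 bp, 63.6), Naaladl2 (982 bp, 55.1), the asparaginase Aspg (967 bp, 51.3) and Slc12a8 of the cation-chloride cotransporter family (3423 bp, 43.4) followed. A single peak of 800 bp on the X chromosome (score 41.9) lay at Tmsb15b1, Tmsb15b2 and Tmsb15l, near-identical thymosin genes between which reads may not be told apart. None of these promoters overlapped an H3K27me3 peak in either compartment.

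Among the 270 genes, the villi-only promoters by score began with Sprr2a2, a small proline-rich protein whose family has near-identical copies (611 bp, score 63.2). Sgk2, a kinase related to regulators of epithelial ion transport, had a peak of 1591 bp (chr2:162987151-162988741, score 59.3). Bcl6b, a transcriptional repressor, had 1781 bp (47.9), and the membrane protein gene Susd2 had 2047 bp (45.5). Gm21738 (1320 bp, 44.9), the synaptic adhesion gene Nrxn2 (539 bp, 41.9), the microtubule-associated protein gene Map1b (944 bp, 40.7), the imprinted growth factor gene Igf2 (628 bp, 39.1) and Apol9a (786 bp, 38.3) came next. The peak at Gm21738 had a GC content of 34.8%, against a median of 56.9% at villi-only promoter peaks, and no H3K4me1 peak in either compartment. Whether reads map uniquely there was not examined. Clca4a, of the family of calcium-activated chloride channel regulators, had the widest peak of the group, 3308 bp (chr3:144971708-144975015, score 38.3). H3K27me3 overlapped the peaks of Bcl6b, Nrxn2, Map1b and Igf2 in both compartments and none of the other 6. Genes of several functions were therefore mixed in both groups. H3K27me3 at 4 of the 10 villi-only promoters is near its share over all villi-only promoter peaks, 44.4% in villi and 38.8% in crypts.

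Most shared peaks had nearly the same width in both compartments. In 14941 pairs each peak overlapped a single peak of the other list, and 1258 of them (8.42%) differed by at least 1.5-fold. The quartiles of the log2 width ratio, villi over crypts, were -0.17 and 0.11. In 180 pairs (1.20%) the villi peak was at least 2-fold wider and in 146 (0.977%) at least 2-fold narrower. Wide peaks leaned towards villi, with 69.0% of the 677 pairs whose widths averaged 4000 bp or more wider there and a median of 0.06. Pairs whose crypts peak had a CpG ratio under 0.4 also leaned towards villi (58.4% of 2702 wider, median 0.06), whereas those at 0.6 or more leaned towards crypts (38.0% of 7700 wider, median -0.05). On the X chromosome the median was -0.13 over 409 pairs, below the autosomes, which ranged from -0.06 on chromosome 13 to -0.01 on chromosome 19.

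At 11490 genes a promoter peak formed such a pair, with a median log2 ratio of -0.04. The peak was narrower in villi by any amount at 6876 genes (59.8%) and wider at 4591 (40%). It was at least 2-fold wider at 52 genes (0.453%) and at least 2-fold narrower at 70 (0.609%), and at 1.5-fold the counts were 255 (2.22%) and 337 (2.93%). The order of these 2-fold counts turned with the top 50% of each list by score (34 wider, 32 narrower) and with base pairs covered within 5 kb of a start site in place of peak width (106 wider, 97 narrower). Within 1 kb of a start site, H3K27me3 peaks lay at 17 of the 52 wider promoters in crypts (32.7%, 21.5 to 46.2%) and 18 in villi (34.6%). At the 70 narrower promoters it was found at 23 (32.9%, 23.0 to 44.5%) and 25 (35.7%), against 10.6% and 12.3% of all paired promoters. These promoters were not matched to all paired promoters by rank.

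**Figure D2:**
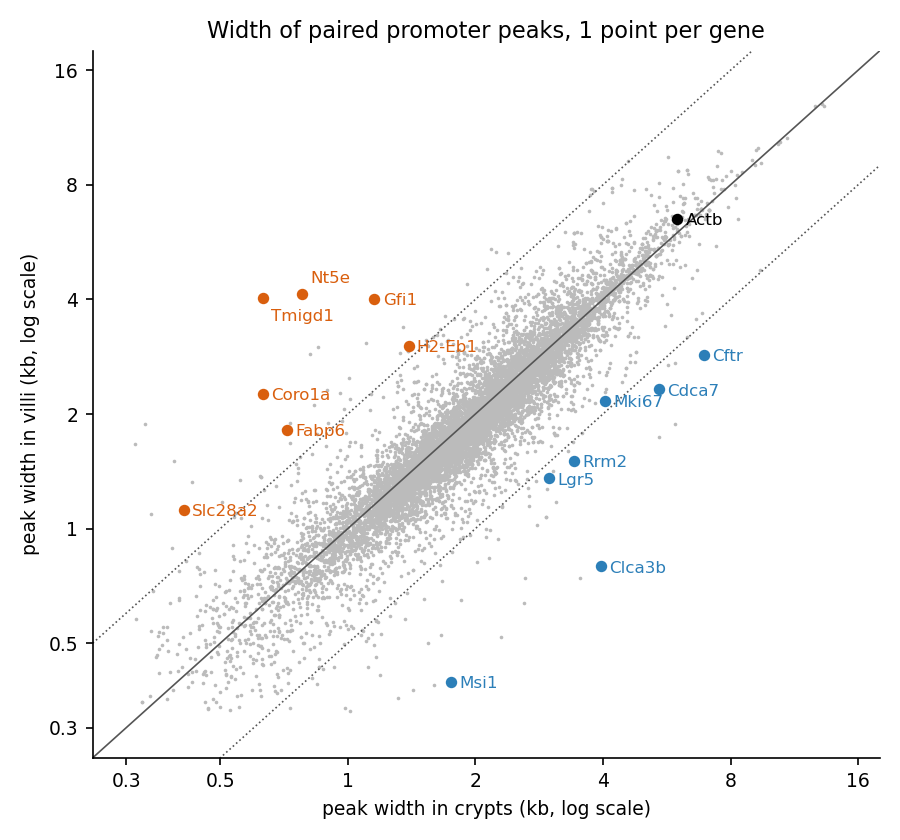
Width of the promoter peak in crypts (x axis, kb, log scale) and villi (y axis, kb, log scale), 1 grey point per gene with a single pair of peaks. The solid line marks equal width and the dotted lines a 2-fold difference, and the named genes lie beyond or near them (orange wider in villi, blue narrower, black Actb).

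Genes of intestinal stem cells had narrower peaks in villi almost throughout. Of the 23 genes of this list, 21 had promoter peaks in crypts and in villi, Olfm4 had one in crypts only and Clu in neither. Of 17 genes with a single pair, 16 were narrower in villi, with a median log2 ratio of -0.47, beside 59.8% narrower and a median of -0.04 over all paired genes. The peak of Olfm4 (chr14:80000308-80004695) covered 4388 bp in crypts with a score of 36.1, and no villi peak lay within 5 kb of its start sites. Lgr5, the R-spondin receptor that marks stem cells, measured 2989 bp in crypts (chr10:115585258-115588246) and 1356 bp in villi, a log2 ratio of -1.14. The RNA-binding protein gene Msi1 measured 1754 and 396 bp (-2.15), the Myc-responsive gene Cdca7 5419 and 2323 bp (-1.22), and the matricellular protein gene Smoc2 3402 and 1689 bp (-1.01). The villi peak of Msi1 ranked at 99.5%, near the lowest scores called, which limits what its width can show. The ephrin receptors that position cells along the crypt were also narrower, Ephb3 with 2956 and 1270 bp (-1.22) and Ephb2 with 3610 and 2203 bp (-0.71).

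The 2-fold threshold was passed by 5 of 17 paired stem cell genes, Msi1, Cdca7, Ephb3, Lgr5 and Smoc2, beside 0.609% of all paired genes. Below it came Lrig1, a feedback inhibitor of growth factor receptors, with 9386 bp in crypts and 4782 bp in villi (-0.97), the hyaluronan receptor gene Cd44 with 2500 and 1335 bp (-0.91), and the transcription factor gene Myb with 4692 and 3389 bp (-0.47). Sox9, a transcription factor of crypt progenitors, measured 5480 and 4987 bp (-0.14). Bmi1, a Polycomb subunit, was the exception with 1531 and 1536 bp (0.00). Counted as base pairs within 5 kb of a start site, so that genes with several peaks enter as well, the list was covered over 93450 bp in crypts and 59908 bp in villi, with less in villi at 22 genes and more at none. Of the 13449 genes covered in either compartment 58.2% had less in villi, and over the 12889 covered in both the median log2 ratio was -0.04. The paired peaks ranked lower in villi at 12 of 17 genes and higher at 5, at a median of 57.7% against 46.4% in crypts. All paired promoters stood at 32.7% and 33.0%, with 5429 of 11475 (47.3%) lower and 6045 higher in villi.

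Wnt targets and feedback genes, of which 7 of 22 are also in the stem cell list, leaned the same way. Of 15 paired genes 13 were narrower in villi (median -0.22), and over the 9 paired genes outside the stem cell list 7 were narrower (median -0.13). Sfrp1 (749 bp, score 10.9) and Sfrp5 (935 bp, 21.6), secreted Wnt inhibitors, had a promoter peak in crypts only. The proto-oncogene Myc measured 5861 bp in crypts and 4967 bp in villi (-0.24), and Nkd1, a negative feedback gene, had -0.45. The secreted inhibitor Wif1 (0.37) and the transcription factor Sp5 (0.07) were wider in villi. The list was covered over 56996 bp in crypts and 44522 bp in villi.

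Genes of the cell cycle and DNA replication were uniform in direction. All 36 had promoter peaks on both sides, and all 35 with a single pair were narrower in villi, by a median log2 ratio of -0.45. Rrm2 was the only one beyond 2-fold, with 3417 bp in crypts (chr12:24706718-24710134) and 1507 bp in villi (-1.18). Mki67 measured 4044 and 2166 bp (-0.90), the replicative helicase subunit gene Mcm6 2486 and 1345 bp (-0.89), and the sliding clamp gene Pcna 2986 and 2004 bp (-0.58). The mitotic cyclin gene Ccnb1 had -0.85 and the thymidylate synthase gene Tyms -0.81, while Cdc45, a helicase component, was nearly equal at -0.09. The median rank was 28.4% in crypts and 36.4% in villi, lower in villi at 27 of 35 genes, beside 47.3% of all paired promoters. Rrm2 went the other way in rank, 33.2% in crypts and 18.7% in villi, so its peak was narrower in villi and yet scored higher within its list. Within 5 kb of the start sites peaks covered 92768 bp in crypts and 67927 bp in villi.

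**Figure D3:**
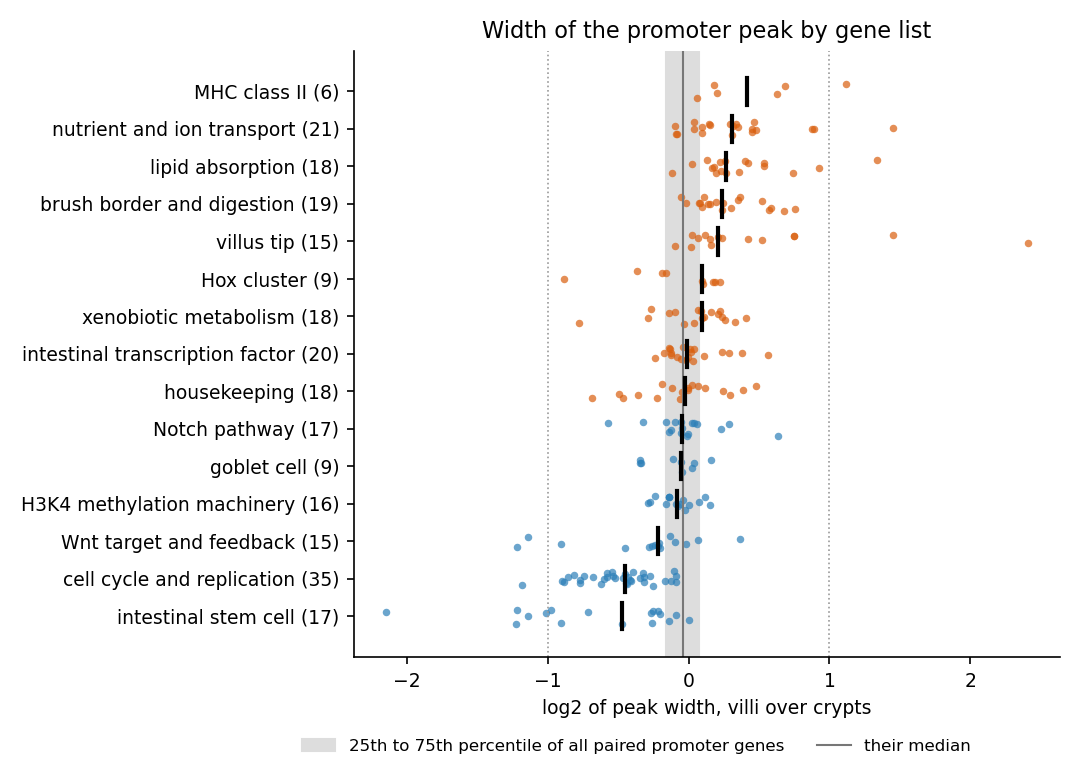
Log2 of the width of the promoter peak in villi over crypts for each gene of 15 lists, with the number of paired genes in brackets and the median of the list as a black bar, orange where it lies above and blue where it lies below the median of all paired genes. The grey band and line give the 25th to 75th percentile and the median (-0.04) of all paired genes, and dotted lines a 2-fold difference. The cell cycle and stem cell lists lie to the left, and the absorption, transport and brush border lists to the right.

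Genes of the absorptive enterocyte had wider peaks in villi. The brush border and digestion list had promoter peaks in both compartments at 22 of 23 genes, and 17 of 19 paired genes were wider in villi (median 0.24), beside 40% of all paired genes. The brush border myosin gene Myo1a measured 3547 bp in crypts (chr10:127702598-127706144) and 5982 bp in villi (0.75), and the lactase gene Lct 3893 and 6239 bp (0.68). The peptidase gene Naaladl1 had 0.58, the microvillar protocadherin gene Cdhr5 0.57 and the alkaline phosphatase gene Alpi 0.14. Vil1, the actin bundler villin, measured 7085 and 8368 bp (0.24). The sucrase-isomaltase gene Sis (-0.02) and the microvillar scaffold gene Ush1c (-0.05) were the exceptions. No gene of the list reached 2-fold, and the median rank was 41.4% in crypts and 20.4% in villi, higher in villi at 17 of 19 genes, beside 6045 of all 11475 paired promoters.

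Transporters of nutrients and ions were wider in villi at 18 of 21 paired genes (median 0.31), and all 22 had peaks in both. Slc28a2, a nucleoside transporter, measured 410 and 1119 bp (1.45), and its crypts peak ranked at 98.3%, near the lowest scores called. The ileal bile acid transporter gene Slc10a2 measured 2390 and 4429 bp (0.89) and the phosphate transporter gene Slc34a2 3716 and 6815 bp (0.87). Narrower by small amounts were the iron transporters Slc11a2 (-0.08) and Slc40a1 (-0.09) and the monocarboxylate transporter Slc16a1 (-0.10). The peaks ranked at a median of 49.5% in crypts and 33.7% in villi, higher in villi at 20 of 21 genes. The median width ratio was 0.12 with the top 50% of each list by score and 0.15 by base pairs covered within 5 kb.

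Lipid absorption genes were wider in villi at 17 of 18 paired genes (median 0.26). Fabp6 measured 719 bp in crypts (chr11:43600745-43601463) and 1815 bp in villi (1.34), and the carboxylesterase gene Ces2c, a member of a cluster of close paralogs, 1866 and 3547 bp (0.93). The sterol transporters Abcg5 and Abcg8, which share a promoter, had a single pair of 6003 and 8714 bp (0.54). The apolipoproteins Apoc3 (0.42) and Apob (0.27) were also wider, and the lipid droplet gene Plin2 (-0.12) was the exception. Base pairs covered within 5 kb came to 80897 in crypts and 102730 in villi.

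Genes described at the villus tip were wider in villi at 14 of 15 paired genes (median 0.21). Nt5e measured 781 bp in crypts and 4142 bp in villi (2.41), the nucleotide pyrophosphatase gene Enpp3 2289 and 3853 bp (0.75), and the adenosine deaminase gene Ada 2067 and 3467 bp (0.75). These 3 enzymes act in purine metabolism, and Slc28a2, also in this list, carries purine nucleosides. Clca4a was the only member with a peak in villi only. Nt5e had an H3K27me3 peak less than 1 kb from its start sites in both compartments, which overlapped the H3K4me3 peak itself in villi only.

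The lists of other lineages were near the background or thinly covered. Intestinal transcription factors all had peaks in both compartments, and of 20 paired genes 9 were wider and 11 narrower in villi (median -0.01). Cdx2, a factor of intestinal identity, measured 10486 and 10371 bp, whereas Prdm1 measured 2736 and 4051 bp (0.57) and Gata5 had 0.38. Goblet cell genes had a median of -0.05 over 9 pairs, with the mucin gene Muc2 at 2312 and 2235 bp, and Spink4 (1383 bp, score 17.7) and Capn8 (1208 bp) had a peak in crypts only. Notch pathway genes had -0.05 over 17 pairs. Among them the glycosyltransferase Lfng measured 4735 and 3188 bp (-0.57) and the target Hes1 6078 and 4863 bp (-0.32), whereas Rfng, related to Lfng, measured 2364 and 3675 bp (0.64). The receptor gene Notch3 had a peak in crypts only (832 bp, score 18.4) and Mfng in villi only (674 bp, 11.4).

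Paneth cells, which belong to the crypt, had few promoter peaks at their defining genes. Of 14 Paneth genes found, 9 had no promoter peak in either compartment, beside 41.1% of all coding genes. Among the 9 were the lysozyme gene Lyz1 and the metalloproteinase gene Mmp7. Wnt3, the Wnt ligand of Paneth cells, measured 2150 bp in crypts and 839 bp in villi (-1.36), and Cd24a was nearly equal (-0.02). The villi peak of Wnt3 ranked at 97.1%, near the lowest scores called. The lectin gene Reg3g had a peak in crypts only (2053 bp, score 10.2) and the angiogenin gene Ang4, of a family of close paralogs, in villi only (982 bp, 11.7). Enteroendocrine genes lacked a peak in both at 18 of 23, beside 41.1% of all coding genes, and Pax6 had one in villi only (775 bp, score 22.6). Of 14 tuft cell genes 9 had none, beside the same 41.1%, while the lineage factor Pou2f3 had a peak in crypts only (747 bp, 22.2) and the cyclooxygenase gene Ptgs1 in villi only (521 bp, 10.8). Hox genes lacked a peak at 27 of 39, again beside 41.1%. Hoxb8 had one in crypts only (994 bp, 15.4), and Hoxa3 (503 bp, 10.2) and Hoxd1 (585 bp, 14.5) in villi only.

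Of 22 genes of T cells and intraepithelial lymphocytes, 14 had no promoter peak, beside 41.1% of all coding genes. The other 8 had one in villi only, beside 2.15% of all genes with a promoter peak of any rank, so that no width could be compared. The villi peaks measured 2761 bp at Cd7, 2180 bp at Cd3g, 1940 bp at the chemokine gene Ccl5, 1608 bp at Ptprc, which encodes the leukocyte antigen CD45, 1181 bp at Cd3e, 829 bp at Cd8a, 730 bp at Lat and 561 bp at the granzyme gene Gzma. Their scores were low, from 10.2 to 21.9, and they ranked between 81.6% and 99.1% of the villi list. At those ranks, in score bins 9 and 10, only 70.3% and 44.7% of all villi peaks were shared. Among promoter peaks of the villi list, 114 were villi-only and 436 shared in bin 9, and 206 and 238 in bin 10, so villi-only peaks were common there. Peaks covered 1670 bp within 5 kb of the start sites of the list in crypts, all at the kinase gene Lck, which had less in villi (1274 bp), and 15244 bp in villi, where 12 members were at 0, Cd4, Cd8b1 and Cd247 among them. The villi preparation therefore held peaks at T cell genes that the crypts list lacked, and their part in the other differences was not tested. MHC class II genes, by contrast, had no promoter peak in 1 compartment alone and were wider in villi at 6 of 6 paired genes (median 0.42), with H2-Eb1 at 1391 and 3020 bp (1.12), H2-Aa at 1815 and 2923 bp (0.69) and H2-DMb1 at 985 and 1523 bp (0.63). By base pairs covered within 5 kb the MHC median was 0.19, with 7 of 8 covered genes higher in villi beside 5299 of the 12889 genes covered in both, and with merged peaks it was 0.21.

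Other non-epithelial cells left few peaks. Over 5 lists of B cell, myeloid, mesenchymal, endothelial and neural genes, 47 of 58 genes had no promoter peak in either compartment, beside 41.1% of all coding genes. Of the others 8 had one in both, none in crypts only and 3 in villi only, beside 1.8% and 2.15% of all genes with a promoter peak. These 3 were Laptm5 of hematopoietic cells (2381 bp, score 16.4), the collagen gene Col1a1 (791 bp, 11.7), whose peak met a crypts peak of 440 bp over 1 kb from a start site, and the endothelial receptor gene Kdr (582 bp, 24.0). Base pairs covered near start sites in crypts and villi were 539 and 885 for B cells, 4725 and 6676 for myeloid cells, 2988 and 3894 for mesenchyme, 2601 and 3340 for endothelium, and 2671 and 2605 for neurons and glia. Among the lists taken as a reference, housekeeping genes had a median log2 ratio of -0.03 over 18 pairs (7 wider, 11 narrower), with Actb at 5984 and 6502 bp (0.12) and Rplp0 at -0.68. Genes of the H3K4 methylation machinery had -0.08 over 16 pairs, xenobiotic metabolism 0.09 over 18 and Hox genes 0.10 over 9.

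**Figure D4:**
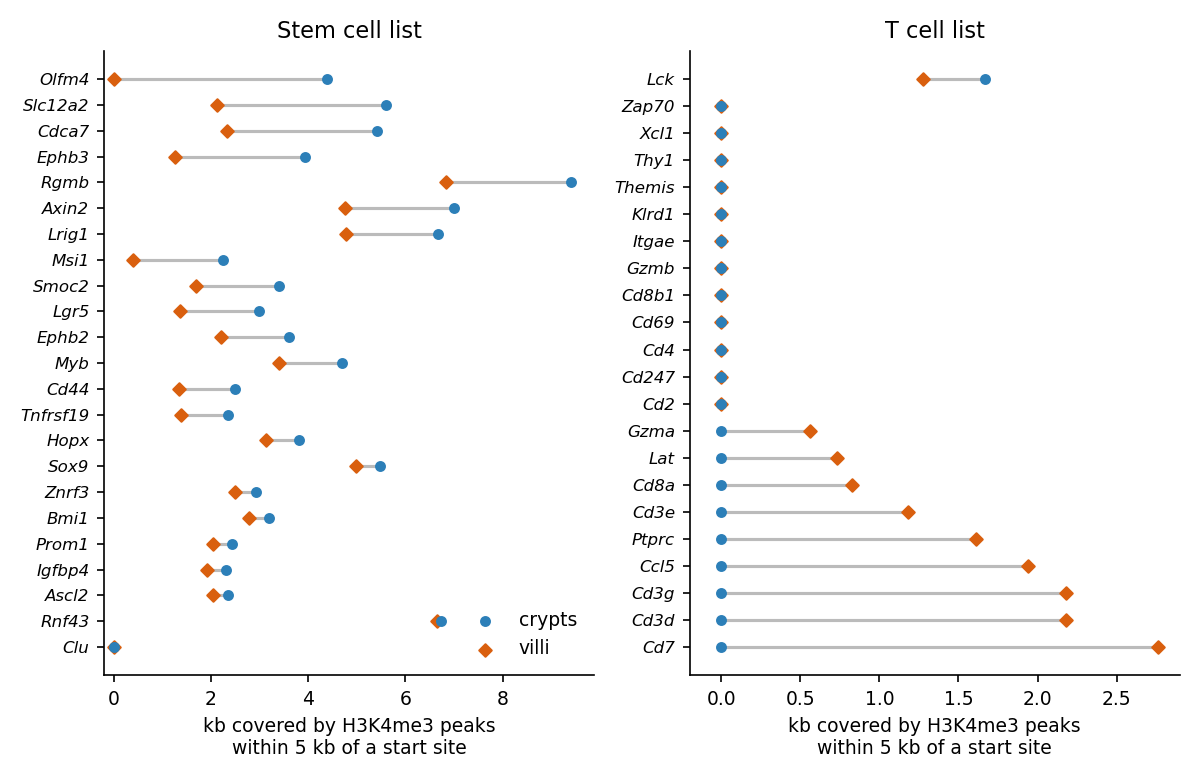
Kilobases covered by H3K4me3 peaks within 5 kb of a start site in crypts (blue circles) and villi (orange diamonds) for the genes of the stem cell list (left) and the T cell list (right). Less is covered in villi at 22 of 23 stem cell genes, and of the T cell genes only Lck is covered in crypts.

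Outside the lists, promoters were ranked by width ratio among 5874 genes whose wider peak measured 2 kb or more. The narrowest in villi were Clca3b, a paralog of Clca4a, with 3956 bp in crypts and 796 bp in villi (-2.31), the latter over 1 kb from a start site, the angiopoietin gene Angpt2 with 3533 and 740 bp (-2.26), and Sorbs3, which encodes vinexin, with 2302 and 518 bp (-2.15). Msh5, a meiotic MutS homolog, measured 2606 and 639 bp (-2.03) and Aunip, an Aurora A partner, 2626 and 744 bp (-1.82). Hacd1 of fatty acid elongation (5927 and 1888 bp, -1.65), the potassium channel subunit gene Kcne3 (5419 and 1739 bp, -1.64) and the folate enzyme gene Shmt1 (2803 and 1025 bp, -1.45) came next. Tmem176a and Tmem176b share 1 pair (2939 and 1075 bp, -1.45). Clca3b and Clca4a, neighbours on chromosome 3, thus differed in opposite directions, the former wide in crypts and the latter called in villi only.

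The widest in villi by ratio were Tmigd1, with 631 bp in crypts (score 10.2) and 4025 bp in villi (chr11:76902176-76906200, log2 ratio 2.67), and Nt5e. Coro1a, a leukocyte actin regulator, measured 630 and 2257 bp (1.84), and its crypts peak ranked at 97.7%, near the lowest scores called. The repressors Hic1 (814 and 2876 bp, 1.82) and Gfi1 (1155 and 4007 bp, 1.79) followed, with Gm5485 (850 and 2993 bp, 1.82) between them. S100a6, a calcium-binding protein, measured 1104 and 3074 bp (1.48), Slc5a4a of the sodium-glucose cotransporter family 891 and 2319 bp (1.38), the mitochondrial carrier gene Slc25a48 834 and 2114 bp (1.34), and the innate immune adaptor gene Ticam1 1350 and 3386 bp (1.33). Of these genes, Nt5e is in the villus tip list and Coro1a is the one described here as a leukocyte gene, and no share of either kind was computed.

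The width differed mainly on the downstream side, over the transcribed part of the gene. At 46 promoters of a single gene that were at least 2-fold wider in villi, the downstream edge lay a median of 1303.5 bp further out and the upstream edge 111.5 bp, and the downstream shift was the larger at 87.0% (74.3 to 93.9%). At 66 promoters at least 2-fold narrower, the median shift was -696.5 bp downstream and -231.5 bp upstream, inward being negative, and the downstream shift was the larger at 72.7% (61.0 to 82.0%). Over all 9055 such promoters the downstream shift was the larger at 67.1%. It was the larger at 16 of 17 stem cell genes (medians -969 bp downstream and -132 bp upstream) and at 28 of 29 cell cycle genes (-625 and -26 bp). At Cftr, the chloride channel gene mutated in cystic fibrosis, the peak measured 6924 and 2855 bp (-1.28), and its edges shifted by -3864 bp downstream and by -205 bp upstream. Transport genes showed it at 17 of 20, brush border genes at 15 of 19, lipid absorption genes at 13 of 16, villus tip genes at 12 of 15, housekeeping genes at 12 of 14 and intestinal transcription factors at 10 of 19. The larger downstream shift was therefore not particular to the lists that differed in width.

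**Figure D5:**
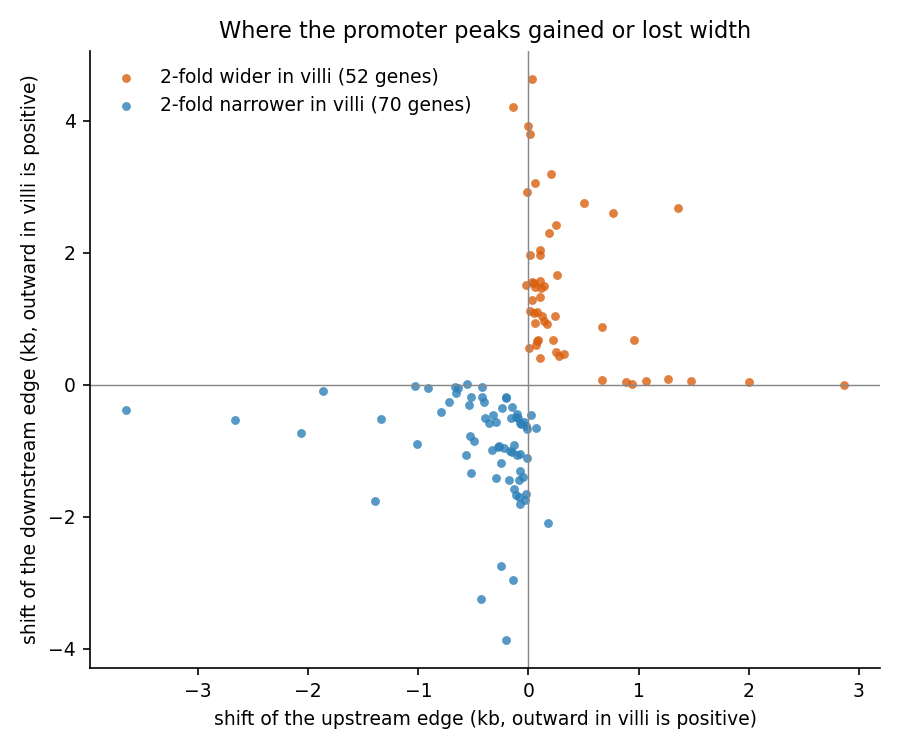
Shift of the upstream edge (x axis, kb) and of the downstream edge (y axis, kb) of the promoter peak between crypts and villi, outward in villi being positive, for the 52 genes at least 2-fold wider (orange) and the 70 at least 2-fold narrower (blue). Most points lie nearer to the vertical line than to the horizontal one, so that the downstream edge shifted more.

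The stretches gained or lost at these promoters kept H3K4me1 peaks in large part. Stretches lost in villi at the 2-fold narrower pairs summed to 93.0 kb, of which H3K4me1 peaks covered 83.0% in crypts and 73.6% in villi and H3K27me3 peaks 13.4% and 18.5%. Stretches gained at the 2-fold wider pairs summed to 91.6 kb, with H3K4me1 over 61.1% in crypts and 72.7% in villi and H3K27me3 over 17.9% and 20.3%. Over all pairs, H3K4me1 covered 81.6% of lost stretches in crypts and 66.3% in villi, and 74.4% and 80.6% of gained ones, and H3K27me3 covered 5.42% and 7.25% of lost and 7.22% and 8.03% of gained ones. H3K4me1 coverage was thus higher in the compartment in which the H3K4me3 peak extended over the stretch, in both directions.

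Promoter sequence differed between the groups of genes. RefSeq promoters of 300 bases were matched for 16515 of 21842 gene symbols. The median number of CpG sites was 22 where both compartments had a peak, 12 for crypts-only, 15 for villi-only and 3 where neither had one. It was 25 in the cell cycle list, in which 86.2% had a CpG ratio of 0.6 or more, and 23 in the stem cell list (81.3%), against 11 for transport (33.3%), 5 for the brush border (15.8%), 4.5 for lipid absorption (5.56%) and 3 for T cell genes (0 of 13). Among all promoters with a peak in both compartments this share was 77.3%, which lies within the intervals of the cell cycle (69.4 to 94.5%) and stem cell lists (57.0 to 93.4%) and above those of the 3 enterocyte lists. The enterocyte lists wider in villi were therefore poorer in CpG than promoters with a peak in both. Promoters 2-fold wider and 2-fold narrower had 10 and 13.5 sites, with a CpG ratio of 0.6 or more at 46.5% of 43 and 50% of 52. At 1.5-fold this share was 54.1% (47.3 to 60.7%) of 209 wider and 67.3% (61.4 to 72.7%) of 260 narrower promoters. The wider ones were thus poorer in CpG at 1.5-fold, with little difference in the small 2-fold groups.

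Of 6 motifs searched on both strands, with overlapping matches all kept, 2 were common. TATAAA, the TATA box, was in 12.6% of all promoters, 6.29% of those with a peak in both compartments, 36.8% (7 of 19) in the brush border list, 27.8% (5 of 18) in lipid absorption, 11.1% (2 of 18) in transport and 3.45% in the cell cycle list. It was in 9 of 43 promoters 2-fold wider in villi (20.9%) and in 4 of 52 narrower (7.69%). At 1.5-fold it was in 24 of 209 wider (11.5%) and 18 of 260 narrower ones (6.92%). GGGCGG, the Sp1 box, was in 49.0% of all promoters and 68.2% of those with a peak in both compartments. Its share was 82.8% (65.5 to 92.4%) in the cell cycle list, 62.5% in the stem cell, 44.4% in the transport, 31.6% in the brush border and 27.8% in the lipid absorption list. The CDX2 core motif TTTATGG was in 2.31% of all promoters and 3 of 19 in the brush border list, 1 of 18 in lipid absorption and none of 18 in transport. The GATA factor motif AGATAA was in 9.45%, and in 4, 3 and 2 promoters of these lists. The HNF4A motif CAAAGTCCA was in 0.466%, and in 2, none and 1. The TCF/LEF motif CTTTGAT was in 3.09% of all promoters, 1 of 19 in the brush border list and none of the 16 in the stem cell list. A match is a description of the letters in this window only.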

How the data were processed

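Crypts and villi of mouse small intestine were grouped by the labels, with 1 H3K4me3 library each. Per the methods, paired reads were mapped by the authors with Bowtie 1.1.2 to the mouse (mm10) and fly (dm6) genomes, duplicates were removed with samblaster, and MACS2 2.1.1 called peaks per library (versions from the submitters' processing notes, which also list deepTools 3.1). The deposited lists give positions on mm10 and a score. It was read as the −log10 p-value of the authors' caller, being 10 or more at every peak. The lowest scores, 10.0007 in crypts and 10.0006 in villi, lie at the p-value limit given in the methods, although the lists do not name the score. The score is not scaled by the spike-in and served for ranks within a list. The labels and the methods differ on chromatin amounts and beads.

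Overlaps were computed with bedtools 2.31.1, sequences were read with samtools 1.23.1 and pysam 0.24.0, and values were computed with Python 3.11.15, NumPy 2.4.6, SciPy 1.17.1 and pandas 2.3.3. Figures were drawn with Matplotlib 3.10.9. The overlap code was tested on simulated data. Start sites came from GENCODE M21 on GRCm38, which mm10 names. The text names members of 24 gene lists that were called in 1 compartment or differed 2-fold in width and their lists' defining markers, the 10 highest-scoring promoters of each compartment, and the 10 largest and smallest width ratios. Other list members, Cftr and the printed promoters were chosen after their values were seen. The members and lists were chosen with earlier results of these data known. Alternatives changed the overlap, merging, score limit, promoter window and width measure. Inputs, signal tracks and the other marks, beyond overlaps with H3K4me1, H3K27me3 and H3K9me3, were not used here.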

Additional observations from a re-analysis of the deposited data

How the results depend on the processing

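Under every setting run, crypts peaks were shared more often than villi peaks, villi had more promoters with a peak of their own, and the median width ratio was below 0. The counts of promoters 2-fold wider and narrower did not keep their order. Of the summary values, 35 moved by less than their counting interval or, for counts, by less than 1.5 times, while 19 moved more and are given here. With the top 50% of each list by score, shared peaks were 94.1% of crypts and 91.5% of villi peaks, promoters with a peak in 1 compartment 430 and 592, those at least 2-fold wider 34 and narrower 32, and 88.7% and 83.0% of the crypts-only and villi-only peaks were promoter peaks, since a peak of the upper part whose counterpart scores lower then counts as unshared. Merging peaks under 1 kb apart gave 91.4% shared villi peaks. An overlap of at least 50% of both peaks gave 89.4% and 86.8% shared, with 34.3% and 32.2% of unshared peaks at promoters. A promoter window of 500 bp gave 20.2% of villi-only peaks at promoters, and one of 2.5 kb gave 31.5% in crypts and 28.7% in villi. A width ratio of 1.5 gave 255 wider and 337 narrower promoters, and base pairs covered within 5 kb gave 106 wider ones, beside 97 narrower ones, which is within 1.5 times. Of 56 list medians under 4 alternatives chosen after seeing the data, 55 kept their direction, and that of the Hox genes turned to -0.030 with merged peaks, for which the cause was not tested. Medians that moved by over 1.5 times, beside those of transport and MHC class II genes, were 0.16 by covered base pairs and 0.19 with the top 50% for xenobiotic metabolism, and those of housekeeping, Notch and intestinal transcription factor genes, which were all between -0.087 and -0.00062 under each setting. The comparison of shared and unshared peaks within score bins was also added after seeing the data. No paired analysis was possible because there is 1 library per compartment, which also allows no library to be left out. Depth is unknown, so that absence of a weak peak from a list does not show absence of the mark.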

Other observations

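Few genes with a shared promoter peak had a peak at a further start site in 1 compartment alone, 64 genes in crypts and 71 in villi. Beside these counts, 12381 genes had a promoter peak in both compartments. The strongest in crypts lay at a start site of the dystrophin-related gene Utrn (4345 bp, score 56.1), 319292 bp from the start site with the shared peak. In villi it was at Ssh1, a cofilin phosphatase gene (985 bp, score 43.2). Several broad peaks of 1 list met several pieces in the other and entered no width pair. Whole in villi were St3gal4, a sialyltransferase gene (15141 bp, against 2 crypts pieces of 12059 bp in sum), the brush border scaffold gene Slc9a3r1 (13832 bp, 3 pieces of 7097 bp) and Klf3 (12845 bp, 2 pieces of 11705 bp). Whole in crypts was the transcription factor gene Gata6 (13684 bp, 2 pieces of 12138 bp). Away from promoters, the highest-scoring crypts-only peak lay outside coding genes, nearest to Zbtb38 (2691 bp, score 105). A crypts-only peak of 4246 bp lay inside Cldn2, which encodes a pore-forming claudin (score 83.4). These genes were chosen after their values were seen.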
